A study of Mus musculus with 6 samples.

Results

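The Rab small GTPases were compared between B cells that carry the G9gl antibody genes and wild-type (WT) B cells. They were taken as every row whose gene symbol is Rab followed by a number and at most a letter and a further digit, which gave 59 of the 24346 gene symbols. RNA was sequenced from splenic follicular B cells, the recirculating mature B cells of the spleen, of mice aged 8 weeks. The G9gl group was 3 libraries from mice homozygous for the knocked-in heavy and light chain genes of G9gl, which is the germline precursor of an anti-dsDNA antibody. The WT group was 3 libraries from B6 control mice. All cells were sorted for B220 without CD93, with low CD21 and high CD23, and the study asked about the anergic state of G9gl cells, a form of tolerance in which self-reactive B cells survive but are hard to activate. Whether each library is a mouse of its own is not stated, so every p-value reflects the spread between libraries alone, and part of it may be technical.

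Rab proteins are small GTPases that mark the membranes of a cell and direct traffic between them. Guanine nucleotide exchange factors (GEFs) load them with GTP on a membrane, GTPase-activating proteins (GAPs) switch them off, and a GDP dissociation inhibitor carries the inactive form through the cytosol. In the active form they bind effectors such as tethers, motors and lipid kinases. In B cells this traffic includes uptake of the antigen receptor into early endosomes, its recycling to the surface, delivery of antigen to late endosomes where peptides are loaded, and secretion.

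Of the 59 Rab genes, 40 reached 1 FPKM in at least 3 of the 6 libraries and were tested, and 19 did not. FPKM counts fragments per kilobase of transcript, relative to all mapped fragments. Among the tested genes, 3 rose in G9gl (Rab30, Rab19 and Rab20), 6 fell (Rab21, Rab5b, Rab10, Rab37, Rab40c and Rab8a) and 31 did not pass (limma on log2(FPKM + 1), Benjamini-Hochberg adjusted p under 0.05 over all 10122 tested genes). Of the tested Rab genes 22.5% were called, 7.5% higher and 15% lower, against 23.4% of all tested genes, 11.8% higher and 11.6% lower, so the share of Rab genes called was near that of genes at large. The median log2 fold change was -0.01 over the tested Rab genes and -0.0022 over all tested genes. The 3 libraries of one group lay entirely above or below those of the other for 13 of the 40 Rab genes, 4 higher and 9 lower, while 40.8% of all tested genes had such groups, 20.3% higher and 20.5% lower. The number higher was 5 without WT replicate 1, when Rab4b and Rab5c also passed (9.49% of all tested genes were then called higher). The number lower was 4 without G9gl replicate 3 or WT replicate 2 (8.26% and 6.86% of all tested genes), and 3 when low values were not filtered (4.11%). With values rescaled to TPM it was 12 (24.6% of all tested genes called lower and 7.21% higher). That setting moved the median log2 fold change of all genes to -0.13 and gave 730 genes higher and 2493 lower, against 1191 higher and 1174 lower without it.

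The regions around the starts of Rab21 and Rab5b, which fell, and of Rab20 and Rab19, which rose, are shown so that genes called in opposite directions can be compared. Each sequence is the sense strand from 250 bases before to 50 bases after the RefSeq gene start on GRCm38.p6, the assembly called mm10. They span chr10:115315542-115315841 on the minus strand for Rab21, chr10:128696219-128696518 on the minus strand for Rab5b, chr8:11478591-11478890 on the minus strand for Rab20 and chr6:39381103-39381402 on the plus strand for Rab19. The GENCODE starts of Rab19 (39381175) and Rab20 (11478710) lie upstream of the RefSeq starts used. Most of the Rab19 window thus lies past its GENCODE start, which limits its comparison with the other windows. Capitals mark matches on either strand to any of 3 motifs, namely the E-box CACGTG, the Sp1 motif GGGCGG and the CCAAT box.
Rab21: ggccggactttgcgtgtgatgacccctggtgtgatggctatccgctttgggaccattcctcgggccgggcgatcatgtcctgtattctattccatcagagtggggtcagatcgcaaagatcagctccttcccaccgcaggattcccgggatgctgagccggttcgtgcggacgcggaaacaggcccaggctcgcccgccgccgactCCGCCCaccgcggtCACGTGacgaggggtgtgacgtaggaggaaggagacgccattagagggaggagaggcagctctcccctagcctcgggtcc
Rab5b: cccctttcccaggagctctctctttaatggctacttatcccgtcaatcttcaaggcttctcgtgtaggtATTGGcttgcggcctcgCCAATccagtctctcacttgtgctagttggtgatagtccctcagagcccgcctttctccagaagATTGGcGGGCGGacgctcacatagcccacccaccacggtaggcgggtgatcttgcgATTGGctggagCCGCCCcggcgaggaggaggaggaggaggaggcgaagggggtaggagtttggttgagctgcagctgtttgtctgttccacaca
Rab20: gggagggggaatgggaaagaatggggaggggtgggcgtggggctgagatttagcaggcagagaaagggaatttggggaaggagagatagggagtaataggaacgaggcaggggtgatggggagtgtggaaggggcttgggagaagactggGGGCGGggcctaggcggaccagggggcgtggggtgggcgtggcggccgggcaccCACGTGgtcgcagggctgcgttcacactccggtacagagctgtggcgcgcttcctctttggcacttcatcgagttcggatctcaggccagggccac
Rab19: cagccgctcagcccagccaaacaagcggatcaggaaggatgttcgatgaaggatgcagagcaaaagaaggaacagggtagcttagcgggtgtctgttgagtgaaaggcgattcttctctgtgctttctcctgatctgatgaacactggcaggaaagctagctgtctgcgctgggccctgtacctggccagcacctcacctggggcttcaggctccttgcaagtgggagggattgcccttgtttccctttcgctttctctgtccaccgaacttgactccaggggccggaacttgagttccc

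The E-box CACGTG, a motif bound by factors of lysosome genes among others, was found in the windows of Rab21 and Rab20, which changed in opposite directions. It occurred in 7.15% of all 32851 RefSeq promoter windows. Sp1 matches stood in the windows of Rab21, Rab5b and Rab20, against 35.7% of all windows, and CCAAT matches in that of Rab5b, against 37.4%. Of the 60 Rab windows found, 41 held an Sp1 match, 26 a CCAAT match and 6 the E-box. None of the other 4 motifs searched on both strands, TGACGTCA of the cAMP response element, GCGTGGGCG of EGR factors, CCGGAAG of ETS factors and the NRF1 motif, was found in these 4 windows. They occurred in 1.79%, 0.612%, 8.86% and 0.971% of all windows. These 4 windows held 26 CpG sites for Rab21, 15 for Rab5b, 16 for Rab20 and 9 for Rab19. The median was 7 over all windows and 19.5 over the 60 Rab windows.

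Depth was estimated from the FPKM that 1 fragment gives. In a 2 kb transcript, 1 FPKM then stands for 19 to 21.9 fragments in the G9gl libraries and 18.9 to 20.4 fragments in the WT libraries. Spearman correlations across genes were 0.989 to 0.992 between libraries of a group and 0.970 to 0.976 between groups. The 10 B cell markers summed to 7767 to 8157 FPKM in G9gl and 8570 to 8897 FPKM in WT. Of these 10, 6 fell and 1 rose, against 11.6% of all tested genes called lower and 11.8% higher. Those that fell included Cr2 (log2 fold change -1.09), Cxcr5 (-0.50), Ms4a1 (-0.42) and Fcer2a (-0.25), and Cd22 rose (0.26). The 9 T cell markers summed to 7.5 to 8.46 FPKM in G9gl and 4.65 to 7.52 FPKM in WT. Of 13 macrophage markers, 10 were tested and 8 rose in G9gl, against 11.8% of all tested genes called higher. Their sums were 56.4 to 63.1 FPKM in G9gl and 22.1 to 28.6 FPKM in WT. Csf1r, among those that rose, had 2.11 to 2.83 FPKM in G9gl and 0.736 to 1.21 FPKM in WT. It met the filter of 1 FPKM in at least 3 libraries through G9gl, where it was high. Erythroid markers summed to 60.6 to 220.7 FPKM in G9gl, highest in replicate 1, and to 41.6 to 43.7 FPKM in WT. Of dendritic cell markers 3 of 4 tested rose, with sums of 67.8 to 72.1 FPKM in G9gl and 46.2 to 55.0 FPKM in WT. Zbtb46, among those that rose, had 1.48 to 2.41 FPKM in G9gl and 0.247 to 0.676 FPKM in WT. It too entered the test only through G9gl. Of plasma cell markers 3 of 6 tested rose, among them Jchain with a log2 fold change of 2.196, and 1 fell. Jchain had 5.43 to 6.98 FPKM in G9gl and 0.414 to 0.795 FPKM in WT. It thus entered the test only through G9gl, where it was high. The shares of all tested genes were 11.8% higher and 11.6% lower. Plasma cell marker sums were 345 to 369 FPKM in G9gl and 321 to 346 FPKM in WT. Of 7 neutrophil markers 2 were tested. S100a8 rose (log2 fold change 2.08) and S100a9 did not pass (limma adjusted p 0.20). The neutrophil sums were 14.9 to 34.7 FPKM in G9gl and 2.11 to 7.78 FPKM in WT. Of 8 natural killer cell markers only Prf1 was tested. It rose (1.44), with means of 6.44 FPKM in G9gl and 1.73 FPKM in WT. Gzma, by contrast, had 0.857 FPKM in G9gl and 0.888 FPKM in WT. The natural killer cell sums were 5.76 to 9.64 FPKM in G9gl and 2.11 to 3.77 FPKM in WT. The part of these markers in the results was not tested.

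**Figure D1:**
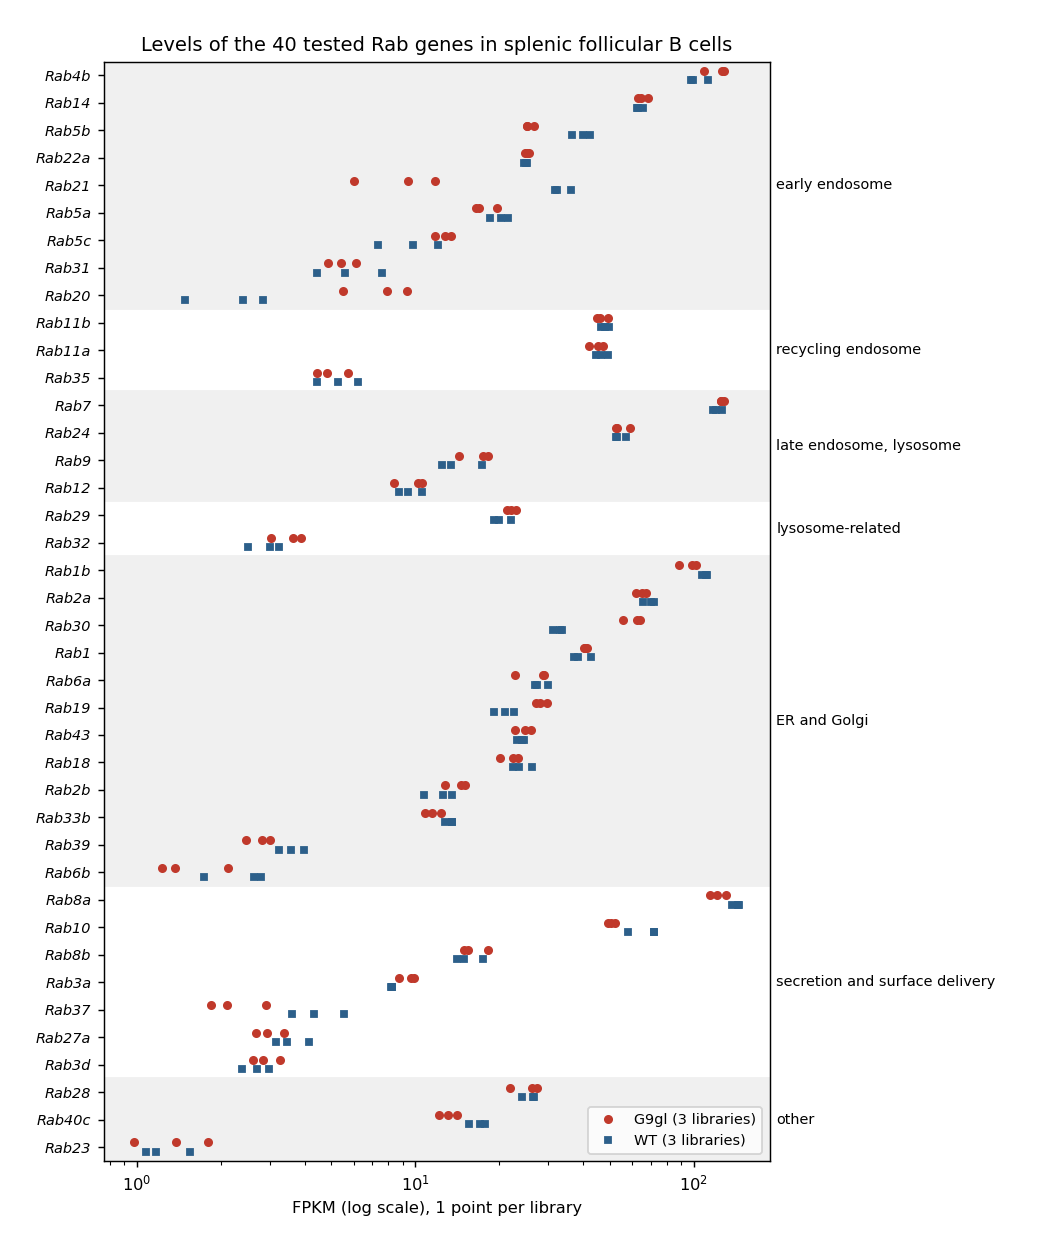
FPKM of the 40 tested Rab genes on a log scale, 1 point per library, with G9gl (red circles) above WT (blue squares) for each gene and genes grouped by the compartment in which the protein is known to act. Means of the 6 libraries run from about 1 FPKM for Rab23 to over 100 FPKM for Rab8a, Rab7, Rab4b and Rab1b. The groups stand clearly apart for Rab21, Rab20, Rab30 and Rab5b.

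As the plot of levels by compartment shows, follicular B cells held a broad set of Rab transcripts over a range of about 1.33 to 132 FPKM in the mean of the 6 libraries. The 59 genes together summed to 1249 to 1271 FPKM in G9gl and 1273 to 1331 FPKM in WT. The most abundant were Rab8a, Rab7, Rab4b, Rab1b, Rab2a, Rab14, Rab10 and Rab24, which made up 56.0% of that sum. Neighbours in this order often lay within the spread of their libraries, as with Rab2a at 64.9 ± 2.62 FPKM in G9gl and 69.3 ± 3.14 FPKM in WT and Rab14 at 65.5 ± 2.75 FPKM in G9gl and 63.8 ± 1.81 FPKM in WT (SD, 3 libraries in each group, as for the means that follow).

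Rab proteins of the early endosome, where internalised receptors first arrive, included 9 tested genes, of which Rab20 rose and Rab21 and Rab5b fell (11.8% of all tested genes were called higher and 11.6% lower). Rab21, which acts in early endosomes and in the traffic of integrins, had the largest decrease of any Rab gene. Its FPKM was 9.43, 6.04 and 11.8 in the G9gl libraries, against 36.2, 31.7 and 32.2 in the WT libraries. Every G9gl library lay below every WT library, and the highest G9gl value was under the lowest WT value by a wide margin. The log2 fold change was -1.81 ± 0.18 (SE, limma adjusted p 1.5e-04), with means of 9.08 ± 2.89 FPKM in G9gl and 33.4 ± 2.46 FPKM in WT. Rab21 lies on chromosome 10 (115287084 to 115315594, minus strand, GENCODE vM21 on GRCm38), and its exons overlap no other annotated gene. None of the stretches of 50 bases in its transcripts occurs in a transcript of another gene, so sharing of fragments with a copy is not a limit there. If all fragments fell on its longest transcript of 4602 bases, its values rest on about 306 to 515 fragments in G9gl and 1408 to 1700 in WT.

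Rab5b encodes 1 of the Rab5 proteins that drive fusion of early endosomes. It had 25.2, 26.6 and 25.3 FPKM in the G9gl libraries, against 42.3, 36.6 and 39.9 FPKM in the WT libraries. The G9gl values were nearly equal to one another and all lay below the WT values. The log2 fold change was -0.60 ± 0.07 (SE, limma adjusted p 4.1e-04). The gene lies on chromosome 10 (128677175 to 128696264, minus strand), and 9.8% of its 50-base stretches also occur in the transcript Gm13991, so a small part of its fragments could be split.

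The other Rab5 genes did not pass the test. Rab5a pointed the same way as Rab5b (log2 fold change -0.18, 95% interval -0.38 to 0.03) and Rab5c the other way. Rab5a had 17.7 ± 1.65 FPKM in G9gl and 20.1 ± 1.52 FPKM in WT (adjusted p 0.20), and Rab5c 12.6 ± 0.804 FPKM in G9gl and 9.74 ± 2.33 FPKM in WT (adjusted p 0.10, limma). For Rab5c the 95% interval of the log2 fold change ran from 0.04 to 0.70, and it passed as higher without WT replicate 1. Rab5a passed as lower with values rescaled to TPM. Within the summed FPKM of the 3 Rab5 genes, Rab5b made up 43.4% to 48.0% in the G9gl libraries and 55.7% to 58.5% in the WT libraries. Rab5c made up 21.3% to 23.4% in the G9gl libraries and 11.5% to 15.9% in the WT libraries, and for both genes the shares did not overlap between groups. The shares are tied, because a fall of Rab5b alone raises that of Rab5c. The FPKM of Rab5c itself did overlap, at 11.8 to 13.4 in G9gl and 7.36 to 12.0 in WT.

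Rab22a and Rab31, close relatives of Rab5 that act in endosomal sorting, did not pass. Rab22a had 25.6, 24.8 and 25.2 FPKM in G9gl and 24.96, 25.2 and 24.5 FPKM in WT, and the 95% interval of its log2 fold change was -0.13 to 0.16. Rab31 had 5.45 ± 0.640 FPKM in G9gl and 5.86 ± 1.58 FPKM in WT, with a wider interval of -0.44 to 0.30. Summed over Rab5a, Rab5b, Rab5c, Rab21, Rab22a and Rab31, the level was 92.3 to 100.6 FPKM in the G9gl libraries and 128.8 to 141.5 FPKM in the WT libraries. Rab21 made up 6.54% to 11.7% of that sum in G9gl and 24.7% to 25.6% in WT, so that it was among the leading genes of this group in WT and a minor one in G9gl.

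**Figure D2:**
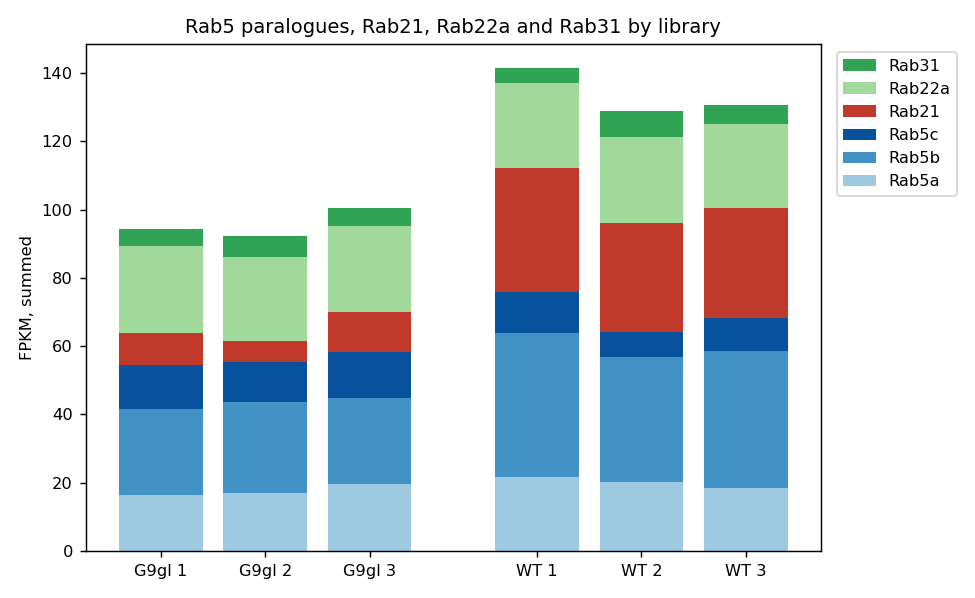
Stacked bars of the FPKM of Rab5a, Rab5b, Rab5c, Rab21, Rab22a and Rab31 in each library, G9gl at the left and WT at the right. The bars reach 92.3 to 100.6 FPKM in G9gl and 128.8 to 141.5 FPKM in WT, and the Rab21 and Rab5b segments are shorter in G9gl.

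Rab20, which is known for its part in the maturation of phagosomes and endosomes, had the largest increase of any Rab gene. Its FPKM was 5.48, 9.36 and 7.92 in the G9gl libraries, against 2.85, 2.40 and 1.48 in the WT libraries. The groups did not overlap, although the lowest G9gl library lay nearer to WT than the other two. The log2 fold change was 1.40 ± 0.20 (SE, limma adjusted p 0.0012). Rab20 is a low gene, and its values rest on about 79 to 143 fragments in G9gl and 20 to 40 in WT. It lies on chromosome 8 (11453518 to 11478710, minus strand), and 25.6% of its exon bases overlap the opposite-strand gene E230013L22Rik. That gene had 0.328 to 1.07 FPKM in G9gl and 0.0574 to 0.555 FPKM in WT, and these libraries keep no strand, so fragments of the overlap cannot be assigned to either gene. Macrophages also express Rab20. Of 13 macrophage markers 10 were tested and 8 rose in the same libraries, against 11.8% of all tested genes called higher. Csf1r, among those 8, met the filter on low values through G9gl, where it was high. The 13 markers had sums of 56.4 to 63.1 FPKM in G9gl and 22.1 to 28.6 FPKM in WT. Cd163 was listed at 0 in 1 library of each group. Their part in the Rab20 result was not tested. More cells of a type and more RNA per cell cannot be told apart in such bulk samples.

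Rab4b and Rab14, which act in early and recycling endosomes, were among the most abundant Rab genes and did not pass. Rab4b had 126.7, 128.8 and 108.4 FPKM in G9gl and 112.6, 99.6 and 97.7 FPKM in WT (log2 fold change 0.23, 95% interval 0.04 to 0.41, limma adjusted p 0.073). The lowest G9gl library lay below the highest WT library, and Rab4b passed as higher without G9gl replicate 3 or WT replicate 1. Overlapping annotated genes, among them Gm21983, cover 65.0% of the exon bases of Rab4b, so its level may include other transcripts. Its paralogue Rab4a reached at most 1.07 FPKM and was not tested.

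**Figure D3:**
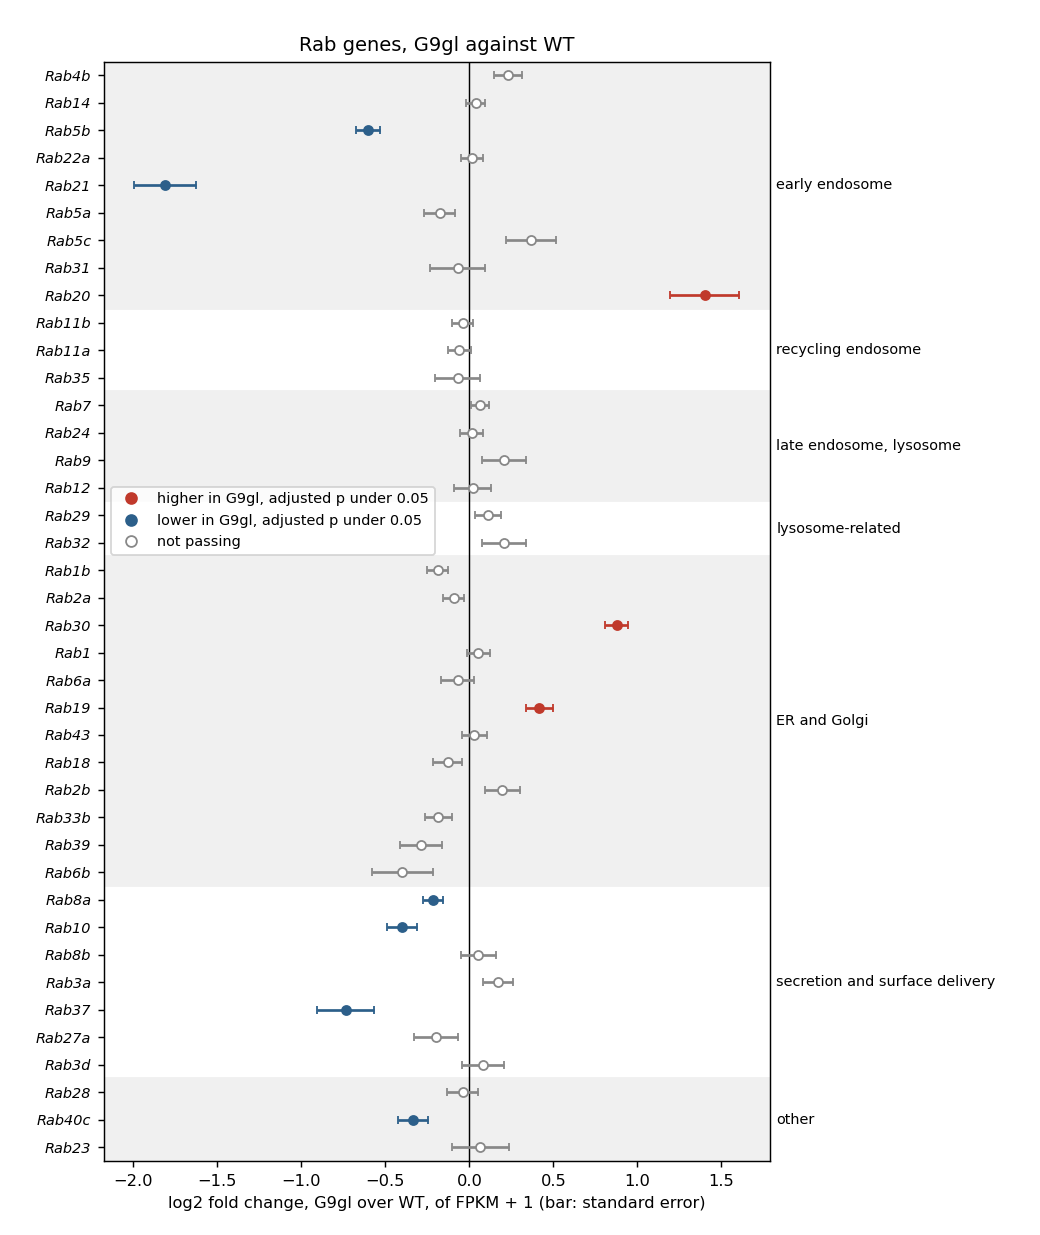
Log2 fold change of G9gl over WT (points) with its standard error (bars) for the 40 tested Rab genes, grouped by compartment, with filled points for the 9 genes at an adjusted p under 0.05. The called genes are Rab20, Rab30 and Rab19 at the right of 0 and Rab21, Rab37, Rab5b, Rab10, Rab40c and Rab8a at the left, and most other genes lie close to 0.

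Among 12 tested Rab genes of the endoplasmic reticulum and Golgi apparatus, Rab30 and Rab19 rose and 10 did not pass, against 11.8% of all tested genes called higher. Rab30 is a Golgi protein with a known part in autophagy of bacteria, and its gene had the smallest p of the family. It had 55.7, 64.2 and 62.3 FPKM in the G9gl libraries, against 33.5, 31.2 and 33.1 FPKM in the WT libraries. The groups were well apart, with little spread within WT. The log2 fold change was 0.88 ± 0.07 (SE, limma adjusted p 4.8e-05), with means of 60.7 ± 4.44 FPKM in G9gl and 32.6 ± 1.23 FPKM in WT. The gene lies on chromosome 7 (92741603 to 92844535, plus strand), its exons overlap no other annotated gene, and its longest transcript has 9456 bases, with 0.258% of its 50-base stretches also found in other transcripts. Rab19, also found at the Golgi, had 27.1, 29.7 and 28.01 FPKM in the G9gl libraries, against 19.2, 20.9 and 22.6 FPKM in the WT libraries. These groups did not overlap either, and the log2 fold change was 0.42 ± 0.08 (SE, limma adjusted p 0.0050). Rab19 lies on chromosome 6 (39381175 to 39390380, plus strand) and has a single annotated transcript.

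The Rab genes that carry the bulk of traffic from the endoplasmic reticulum to the Golgi did not pass the test. Rab1b had 101.6, 98.4 and 88.6 FPKM in G9gl and 110.6, 106.9 and 111.3 FPKM in WT. All G9gl libraries lay below all WT libraries, but the difference missed the threshold (log2 fold change -0.19, limma adjusted p 0.058), and it passed as lower after quantile normalization, with values rescaled to TPM or without G9gl replicate 1. The row named Rab1, the older symbol of Rab1a, had 40.9 ± 0.513 FPKM in G9gl and 39.4 ± 3.002 FPKM in WT. Rab2a and Rab18 had 64.9 ± 2.62 and 21.9 ± 1.59 FPKM in G9gl against 69.3 ± 3.14 and 24.1 ± 1.94 FPKM in WT, and both passed as lower only with values rescaled to TPM. Rab6a, the Golgi Rab that binds dynein adaptors, had 26.8 ± 3.49 FPKM in G9gl and 28.1 ± 1.64 FPKM in WT. Its paralogue Rab6b stood at 1.57 ± 0.481 FPKM in G9gl and 2.39 ± 0.566 FPKM in WT (adjusted p 0.15, limma).

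Rab39 and Rab33b, Golgi and autophagy proteins, had libraries that did not overlap between groups without passing the test. Rab39 had 2.46, 2.81 and 3.01 FPKM in G9gl and 3.56, 3.98 and 3.23 FPKM in WT (log2 fold change -0.29, limma adjusted p 0.12). Rab33b had 11.5, 12.3 and 10.9 FPKM in G9gl and 13.5, 13.5 and 12.8 FPKM in WT (log2 fold change -0.18, limma adjusted p 0.14). Both passed as lower with values rescaled to TPM. Rab43 had 24.5 ± 1.61 FPKM in G9gl and 24.0 ± 0.634 FPKM in WT, and Rab2b 14.15 ± 1.23 FPKM in G9gl and 12.25 ± 1.41 FPKM in WT. Overlapping annotated genes cover 75.4% of the exon bases of Rab43 and 64.0% of those of Rab2b, so these levels are uncertain.

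Of 7 tested Rab genes of secretion and delivery to the cell surface, 3 fell, 0 rose and 4 did not pass by limma, against 11.6% of all tested genes called lower and 11.8% higher. At an unadjusted p under 0.05 the only ones were the same 3, Rab10, Rab37 and Rab8a, and 36.4% of all tested genes had such a p. Rab10, which delivers vesicles to the plasma membrane, had 51.9, 49.1 and 50.4 FPKM in the G9gl libraries, against 71.7, 72.2 and 57.8 FPKM in the WT libraries. WT replicate 3 lay closer to G9gl than the other WT libraries, and the groups still did not overlap. The log2 fold change was -0.40 ± 0.09 (SE, limma adjusted p 0.0098). The gene lies on chromosome 12 (3247428 to 3309969, minus strand).

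Rab37, known from secretory granules, was the lowest of the called genes in G9gl. It had 2.11, 1.85 and 2.91 FPKM in the G9gl libraries, against 5.54, 4.31 and 3.601 FPKM in the WT libraries. The groups did not overlap, and the values rest on about 53 to 72 fragments in G9gl and 89 to 147 in WT. The log2 fold change was -0.74 ± 0.17 (SE, limma adjusted p 0.013), and the adjusted p was 0.062 when low values were not filtered. The gene lies on chromosome 11 (115091431 to 115162236, plus strand). Rab8a, which directs vesicles from the Golgi and recycling endosomes to the surface, was the most abundant Rab gene. It had 130.5, 121.6 and 114.6 FPKM in the G9gl libraries, against 143.8, 145.7 and 136.6 FPKM in the WT libraries. Its difference was the smallest of those called, with a log2 fold change of -0.22 ± 0.06 (SE, limma adjusted p 0.032). The call was lost without G9gl replicate 2 or 3, WT replicate 1 or 2, a filter on low values or a mean-variance trend, with adjusted p of 0.066 to 0.11. Rab8a lies on chromosome 8 (72161200 to 72183904, plus strand).

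Rab8b, the paralogue of Rab8a, had 16.2 ± 1.77 FPKM in G9gl and 15.6 ± 1.75 FPKM in WT. Rab27a, which docks secretory lysosomes in cytotoxic cells, had 2.997 ± 0.344 FPKM in G9gl and 3.59 ± 0.522 FPKM in WT, while its paralogue Rab27b was listed at 0 in all WT libraries and at 0.0244 to 0.0427 FPKM in G9gl. Rab3a, best known from synaptic vesicles, had 9.88, 9.63 and 8.71 FPKM in G9gl and 8.26, 8.26 and 8.15 FPKM in WT. Its groups did not overlap, yet the limma adjusted p was 0.19.

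**Figure D4:**
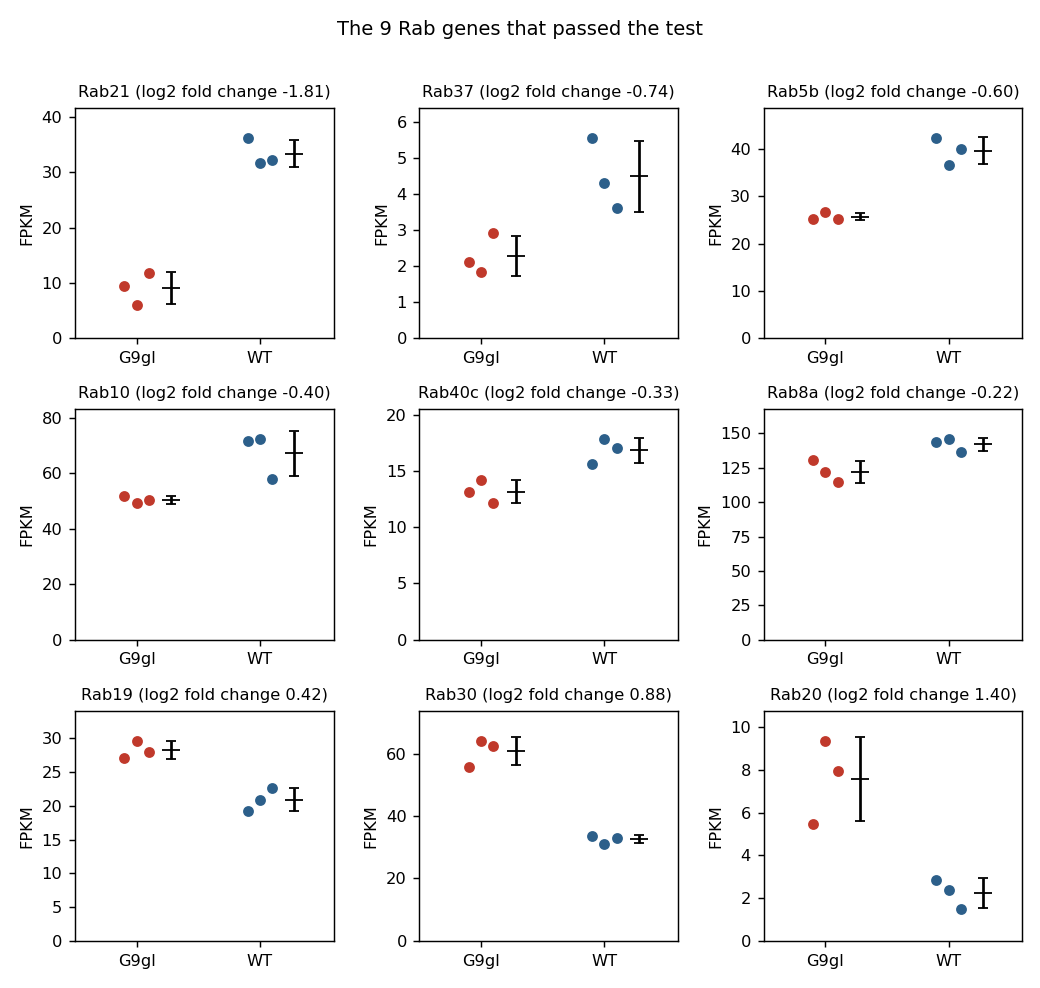
FPKM in each library for the 9 Rab genes that passed the test, G9gl left of WT in each panel, ordered by log2 fold change, with the mean and SD (n = 3) beside the points. In all 9 panels the G9gl libraries lie wholly above or wholly below the WT libraries, widest apart for Rab21 and closest for Rab8a.

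Rab40c, a member of the branch of the family with a SOCS box that recruits a ubiquitin ligase, had 13.1, 14.2 and 12.1 FPKM in the G9gl libraries, against 15.6, 17.8 and 17.01 FPKM in the WT libraries. The groups did not overlap, and the log2 fold change was -0.33 ± 0.09 (SE, limma adjusted p 0.024). The call was lost without G9gl replicate 3 (adjusted p 0.084), without WT replicate 2 (0.092), without WT replicate 3 (0.066) and with low values kept in (0.055). Rab40c lies on chromosome 17 (25882114 to 25919727, minus strand).

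None of the 9 tested Rab genes of recycling endosomes, late endosomes, lysosomes and lysosome-related organelles passed with limma, and none had an unadjusted p under 0.05. Of all tested genes 23.4% were called and 36.4% had an unadjusted p under 0.05, so with so few genes nothing particular to these compartments is read from the count. Rab7, which controls fusion with lysosomes, had 125.7, 125.7 and 128.9 FPKM in G9gl and 117.6, 126.6 and 119.7 FPKM in WT. The 95% interval of its log2 fold change ran from -0.05 to 0.18. Rab11a and Rab11b, which mark recycling endosomes, had 44.8 ± 2.52 and 46.7 ± 2.26 FPKM in G9gl against 46.7 ± 2.25 and 48.0 ± 1.46 FPKM in WT. Their intervals were -0.21 to 0.09 and -0.18 to 0.10. Rab35, a recycling Rab of the plasma membrane, had 4.99 ± 0.656 FPKM in G9gl and 5.30 ± 0.895 FPKM in WT.

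Rab9, which acts in transport between late endosomes and the Golgi, had 16.6 ± 2.05 FPKM in G9gl and 14.4 ± 2.60 FPKM in WT, and Rab24, tied to autophagy, 54.8 ± 3.67 FPKM in G9gl and 54.3 ± 2.59 FPKM in WT. Of the exon bases of Rab24, 62.4% overlap Prelid1 on the opposite strand, a gene with 261 to 275 FPKM in G9gl and 226 to 260.0 FPKM in WT, so the Rab24 level is uncertain. Rab29 and Rab32, which act at lysosomes and lysosome-related organelles, had 22.1 ± 0.802 and 3.52 ± 0.446 FPKM in G9gl against 20.4 ± 1.48 and 2.92 ± 0.372 FPKM in WT. Over the 31 Rab genes that did not pass, log2 fold changes lay between -0.40 and 0.37, and for 28 of them the 95% interval stayed within 0.5 of 0. The exceptions were Rab6b, Rab39 and Rab5c. The remaining genes among the 31 were Rab12, with 9.73 ± 1.16 FPKM in G9gl and 9.565 ± 0.931 FPKM in WT, the ciliary genes Rab23 and Rab28, and Rab3d. Rab28 had 25.15 ± 2.85 FPKM in G9gl and 25.8 ± 1.36 FPKM in WT, and the low gene Rab23 1.385 ± 0.407 FPKM in G9gl and 1.27 ± 0.250 FPKM in WT.

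The 19 Rab genes that were not tested had at most 1.07 FPKM in any library. Among them were Rab25 and Rab17 of epithelial cells, Rab3b and Rab3c of neurons and endocrine cells, and Rab38 of pigment cells. Rab15, Rab27b, Rab40b, Rab44 and Rab9b, 5 genes in all, were listed at 0 in every WT library, and 0 of the 19 in every G9gl library. The G9gl values of these 5 rest on at most about 3 fragments in a library. Of all genes, 14823 to 16187 were above 0 in the G9gl libraries and 13467 to 14908 in the WT libraries. Nothing particular to Rab genes is therefore read from this count. The other untested genes were Rab13, Rab26, Rab33a, Rab34, Rab36, Rab39b, Rab42, Rab4a and Rab7b. For several paralogue groups 1 gene thus supplied nearly all of the signal. Rab4b made up 99.2% to 99.7% of the Rab4 level in G9gl and 99.6% to 99.8% in WT, and Rab7 at least 99.8% of the Rab7 and Rab7b level in every library of both groups.

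The genes that regulate or read Rab proteins were described from a list of chaperones, GEFs, GAPs and effectors, of which 135 of 175 were tested. In G9gl, 12 rose, 23 fell and 100 did not pass (limma, 25.9% called, against 23.4% of all tested genes). Of all tested genes 11.8% were called higher and 11.6% lower. The median log2 fold change was -0.08, against -0.0022 over all tested genes. Without single libraries the counts were 8 to 15 higher and 10 to 24 lower, with 13 lower without G9gl replicate 2 or 3 (7.94% and 8.26% of all tested genes), 10 without WT replicate 2 and 11 without WT replicate 3 (6.86% and 8.59%). The count higher was 8 without G9gl replicate 3 or WT replicate 2 (8.67% and 8.26% of all tested genes). After the TPM rescaling the counts were 8 higher and 46 lower (7.21% and 24.6% of all tested genes). When low values were not filtered, 11 were lower (4.11% of all tested genes). For 16 of the 35 the call held in every alternative.

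Exchange factors were the group with the largest single rise. Rabgef1, also known as Rabex-5, activates Rab5, Rab21 and Rab22a. Its FPKM was 54.4, 67.9 and 59.3 in the G9gl libraries, against 30.3, 32.5 and 30.7 in the WT libraries, with no overlap (log2 fold change 0.93 ± 0.08 SE, limma adjusted p 8.1e-05). Rin3, another exchange factor of the Rab5 group, moved the other way, with 39.1 ± 0.819 FPKM in G9gl and 58.0 ± 3.65 FPKM in WT (log2 fold change -0.56, limma adjusted p 3.6e-04). Trappc2l, a subunit of the TRAPP complexes that act on Rab1 and related proteins, rose to 133 ± 6.48 FPKM in G9gl, against 90.9 ± 3.69 FPKM in WT. The DENN-domain gene Dennd5b rose to 24.7 ± 0.221 FPKM in G9gl, against 16.3 ± 0.0828 FPKM in WT. Hps1, of the complex that activates Rab32 and Rab38, and 3110043O21Rik, the mouse counterpart of C9orf72, also rose. The Hps1 call was lost in 3 of 15 alternatives, among them without G9gl replicate 3 or WT replicate 2.

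The exchange factors that fell besides Rin3 were Dennd3, Dennd4b, Dennd4c, Dennd5a, Mon1b, Sh3bp5l and the TRAPP subunit gene Trappc5. Dennd3, an exchange factor of Rab12, had 24.4 ± 0.462 FPKM in G9gl and 35.8 ± 1.197 FPKM in WT (log2 fold change -0.53, limma adjusted p 4.0e-04). Dennd4b and Dennd4c, exchange factors of Rab10, had 43.5 ± 0.560 and 3.77 ± 0.532 FPKM in G9gl against 57.4 ± 2.43 and 5.57 ± 0.465 FPKM in WT. Mon1b belongs to the complex that activates Rab7 and had 10.1 ± 0.741 FPKM in G9gl and 13.3 ± 0.570 FPKM in WT. Of 15 alternatives, the call was lost in 7 for Trappc5, 6 for Sh3bp5l, 5 for Dennd4c and 2 for Mon1b, with adjusted p of up to 0.10. Each of these was lost without WT replicate 2.

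Among GAPs, Tbc1d5 rose and Tbc1d10a, Tbc1d10b, Tbc1d10c and Tbc1d20 fell. Tbc1d5, which acts on Rab7 together with retromer, had 24.6 ± 1.497 FPKM in G9gl and 17.2 ± 0.193 FPKM in WT (log2 fold change 0.49, limma adjusted p 0.0014). Tbc1d10b, a GAP tied to Rab27a and Rab35, had 18.4, 9.78 and 14.3 FPKM in the G9gl libraries, against 28.02, 30.1 and 27.96 FPKM in the WT libraries. The G9gl libraries were spread widely and all lay below WT (log2 fold change -1.01 ± 0.18 SE, limma adjusted p 0.0031). Tbc1d10c, which is abundant in lymphocytes and also restrains calcineurin, had 309 ± 21.2 FPKM in G9gl and 372 ± 25.2 FPKM in WT, and Tbc1d20, a GAP of Rab1, 32.5 ± 1.05 FPKM in G9gl and 39.97 ± 2.68 FPKM in WT. The calls of Tbc1d10c and Tbc1d20 were lost without WT replicate 2 or 3, and also without G9gl replicate 2 for Tbc1d20, and without G9gl replicate 3, a filter on low values or a mean-variance trend for Tbc1d10c. The call of Tbc1d10a was lost in 7 of 15 alternatives, among them without G9gl replicate 2 or 3 or WT replicate 2 or 3.

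The effectors that rose were Rufy3, Rilpl2, Lrrk2, Appl2, Ocrl and Rabepk. The calls of Ocrl, in 10 of 14 alternatives (adjusted p up to 0.16), and Rabepk, in 11 of 15 (up to 0.29), were lost, each also when any 1 library was left out. Lrrk2 is a kinase that phosphorylates Rab8a, Rab10 and other Rab proteins, and Rilpl2 binds the phosphorylated forms. Lrrk2 had 108.9, 88.4 and 87.6 FPKM in the G9gl libraries, against 59.5, 63.7 and 59.8 FPKM in the WT libraries (log2 fold change 0.62 ± 0.09 SE, limma adjusted p 8.9e-04). Rilpl2 had 51.0 ± 4.80 FPKM in G9gl and 32.6 ± 2.01 FPKM in WT (limma adjusted p 6.9e-04). Neither gene's libraries overlapped between the groups. Rufy3, a gene of a RUN-domain protein of endosomes and lysosomes, had 16.5 ± 0.849 FPKM in G9gl and 9.11 ± 0.918 FPKM in WT.

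Effectors that fell included Ehbp1l1, a partner of Rab8, with 17.2 ± 0.513 FPKM in G9gl and 23.5 ± 1.86 FPKM in WT (log2 fold change -0.42, limma adjusted p 0.0048). Rbsn, which links Rab4 and Rab5 on early endosomes, had 8.31 ± 0.566 FPKM in G9gl and 11.5 ± 0.741 FPKM in WT, and the Rab5 partner Rabep2 73.98 ± 4.70 FPKM in G9gl and 88.8 ± 6.08 FPKM in WT. Appl1 and Appl2, paralogues that bind Rab5 and Rab21, were called in opposite directions. Appl1 had 8.34 ± 0.257 FPKM in G9gl and 10.6 ± 0.923 FPKM in WT (adjusted p 0.039), whereas Appl2 had 10.2 ± 1.40 FPKM in G9gl and 7.21 ± 0.651 FPKM in WT (adjusted p 0.022, limma). The call of Appl1 was lost in 8 of 15 alternatives (adjusted p up to 0.12), and when any 1 library other than WT replicate 2 was left out. That of Appl2 was lost in 6 (up to 0.078), among them without G9gl replicate 2 or 3 or WT replicate 2 or 3. The others that fell were Plekhm2, Plekhm3, Plekhf2, Golga2, Mical1 and Acap2. The call was lost in 9 of 15 alternatives for Golga2, also when any 1 library was left out, and in 7 for Rabep2, including without G9gl replicate 2 or 3 or WT replicate 2 or 3. It was lost in 5 for Mical1 and Acap2, in 4 for Plekhf2 and in 1 for Plekhm2. Mical1, Acap2 and Plekhf2 were among those lost without WT replicate 2.

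Among the chaperones and prenylation enzymes that serve all Rab proteins, Rabggtb, the catalytic subunit gene of the enzyme that attaches the lipid tail of Rab proteins, had 21.9 ± 3.19 FPKM in G9gl and 17.5 ± 1.92 FPKM in WT and did not pass (limma adjusted p 0.085). Arl6ip5 did not pass either.

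**Figure D5:**
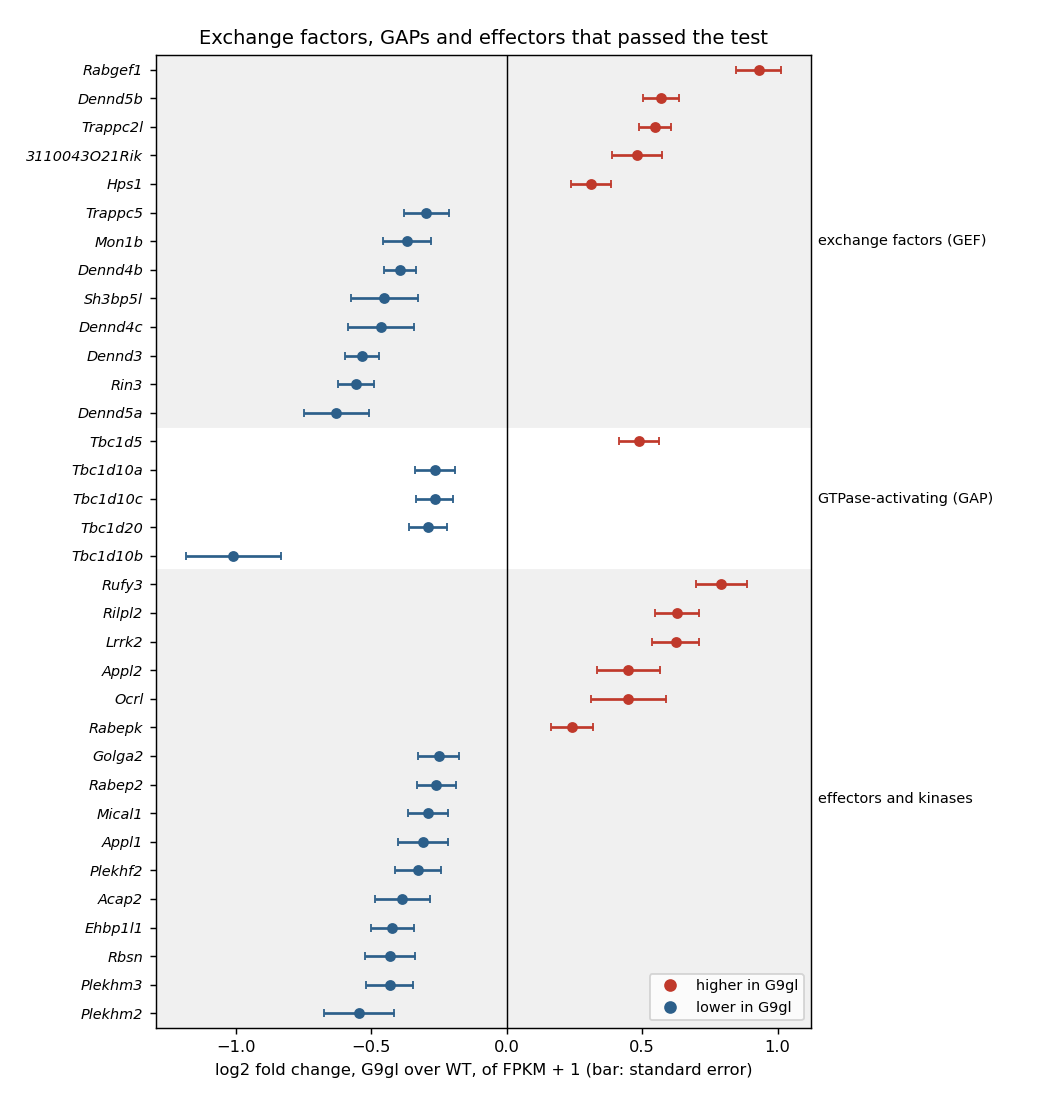
Log2 fold change of G9gl over WT (points) with its standard error (bars) for the exchange factors, GAPs and effectors of Rab proteins at an adjusted p under 0.05, grouped by function. Rabgef1 lies farthest to the right at 0.93 and Tbc1d10b farthest to the left at -1.01.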

How the data were processed

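Follicular B cells were profiled by RNA sequencing in 6 libraries, each deposited as a table of its own. The submitters' processing notes name build mm10 and the programs Cufflinks 2.2.1, SAMtools 0.1.19, Bowtie2 2.2.3 and TopHat2 2.0.13. Per the labels' protocols, Trizol RNA was turned into SMART-Seq HT cDNA and then Nextera libraries, a kind that keeps no strand. The authors deposited FPKM for each gene symbol, a unit inferred from Cufflinks and from values that are not whole. Their annotation, filters and scaling between libraries: not given in the sources used here. A few very abundant transcripts can move the FPKM of all other genes.

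Tests used limma 3.58.1 in R 4.3.3 on log2(FPKM + 1) with genotype alone (lmFit, then eBayes with trend) for genes reaching 1 FPKM in at least 3 libraries. P-values were adjusted by Benjamini-Hochberg across these genes and called at 0.05. Log2 fold changes with this pseudocount understate those of low genes. Library depth was estimated from the smallest FPKM steps of genes with 1 transcript of 1500 bases or more. No pair of libraries shared more than 2 identical values. GENCODE vM21 held all 59 Rab genes, with Rab1 under the symbol Rab1a, and RefSeq promoters were found for 48 of them.

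The Rab genes, lists and motifs were chosen with earlier results of these data known. Called Rab genes are given by library, and of the other lists the 4 tested members with the smallest p (1 result is not reported here). Further genes named, and the 4 promoters, were chosen after values were seen. The labels give no batch, and their replicate numbers did not pair the samples. Pseudocounts of 0.5 and 0.1, other filters and scalings, no trend, a block for replicate number and fits lacking 1 library were tried.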

Additional observations from a re-analysis of the deposited data

How the results depend on the processing

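The calls of Rab10, Rab19, Rab20, Rab21, Rab30 and Rab5b, 6 of 9, held in all 15 alternatives, with log2 fold changes of -2.003 to -1.57 for Rab21 and 1.22 to 1.73 for Rab20. Without single libraries, 3 to 5 Rab genes were called higher and 4 to 7 lower, 8 to 15 regulators and effectors higher and 10 to 24 lower, and 793 to 1076 of all tested genes higher and 689 to 1175 lower. Without a filter on low values, 3 Rab genes and 11 regulators were lower, against 4.11% of all tested genes. With values rescaled to TPM, 12 Rab genes and 46 regulators were lower. Of all tested genes 730 were then higher (7.21%) and 2493 lower (24.6%). That rescaling multiplies all genes of a library by 1 factor and moved the median of all genes by over 0.1 (to -0.13), and relative to it the median of the tested Rab genes was close (-0.14).

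Only genes that did not pass turned in sign. With values rescaled to TPM the log2 fold changes became -0.077 for Rab1, -0.10 for Rab12, -0.094 for Rab14, -0.11 for Rab22a, -0.014 for Rab23, -0.12 for Rab24, -0.015 for Rab29, -0.019 for Rab3d, -0.10 for Rab43, -0.069 for Rab7, -0.074 for Rab8b, -0.012 for Arl6ip5 and -0.016 for Ift27. After quantile normalization they were -0.00560 for Rab23 and -0.002001 for Rab7. Without single libraries values ran from -0.0375 to 0.11 for Rab12, from -0.056 to 0.19 for Rab23, from -0.0405 to 0.052 for Rab24, from -0.099 to 0.053 for Rab28, from -0.22 to 0.10 for Rab31, from -0.17 to 0.033 for Rab35, from -0.014 to 0.078 for Rab43, from -0.13 to 0.039 for Rab6a and from -0.0301 to 0.14 for Rab8b. The causes of these turns were not tested.

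The replicate numbers did not mark shared deviations: same-numbered libraries had correlations of their deviations from the group means of 0.099, -0.069 and 0.021. With the replicate block, 3 Rab genes were higher and 6 lower, as without it, 10 regulators were higher and 16 lower, and of all tested genes 1044 were higher and 988 lower. Depth limits the low genes most, such as Rab37 and Rab20.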

Other observations

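A list of endosome fusion and sorting genes, kept apart from the Rab effectors above, had no called gene. Of 44 tested genes of tethering complexes, retromer, sorting nexins, SNARE proteins and the ESCRT complexes, 0 were called in either direction by limma, against 23.4% of all tested genes, and 6 had an unadjusted p under 0.05, against 36.4%. Their log2 fold changes lay between -0.21 and 0.24 with a median of 0.02. The genes with the smallest p were Stx6, Vps37b, Vps25 and Stx16. Stx6, a SNARE gene of the Golgi and endosomes, had 27.8 ± 1.85 FPKM in G9gl and 23.5 ± 1.78 FPKM in WT (limma adjusted p 0.070, n = 3 per group). With values rescaled to TPM 6 were called lower, against 24.6% of all tested genes. After quantile normalization or without G9gl replicate 1, 1 was called higher, against 10.2% and 10.8% of all tested genes.

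Rab-like proteins, which share the GTPase fold but often lack the lipid tail, were described from 7 genes, of which 6 were tested. Ift22, a subunit gene of the intraflagellar transport complex, rose to 27.2 ± 1.91 FPKM in G9gl, against 19.04 ± 1.96 FPKM in WT (log2 fold change 0.50, limma adjusted p 0.0040). Rabl2 had 1.78 ± 0.132 FPKM in G9gl and 0.954 ± 0.309 FPKM in WT (limma adjusted p 0.042), a call that was lost in 9 of 14 alternatives. Its WT libraries had 0.638, 1.26 and 0.966 FPKM. Rabl2 thus met the filter of 1 FPKM in at least 3 libraries through G9gl, where it was high. Ift27 and Rabl3 did not pass.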
